A study of Mus musculus with 3 samples.

Results

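The JAK kinases and STAT factors were read in thymocytes, developing T cells that mature in the thymus, of 3 wild-type mice. The set consisted of 9 listed genes, 4 kinase genes (Jak1, Jak2, Jak3 and Tyk2) and 5 transcription factor genes (Stat3, Stat4, Stat5a, Stat5b and Stat6). A gene was taken from the array where a probe set carried its symbol and no other, which gave 8 of the 9 genes among 19938 named genes in all. The only probe set that lists Jak3 lists Insl3, its neighbour on chromosome 8, as well, so no level is given for Jak3. Each of the other 8 genes had 1 probe set.

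The mice, numbered 92, 103 and 106, were wild type on a mixed FVB and C57BL6 background and form the normal arm of a study of T cell lymphomas in tPTEN-/- mice. Those lymphomas were not analysed here, and the 3 arrays form a single group, so the only spread that could be tested was that between the mice. Per the labels, 0.3 µg of total RNA was used and the integrity number (RIN) was 3, a low one, in every sample; they also carry a T cell lymphoma entry under disease state, although titles and genotypes read wild type. They give no age or sex.

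In the JAK-STAT pathway a cytokine brings together receptor chains that carry JAK kinases on their inner side. The kinases phosphorylate each other and the receptor, STAT proteins dock there and are phosphorylated in turn, and STAT dimers enter the nucleus and bind DNA. In the thymus the pathway is best known for interleukin 7, which acts through JAK1, JAK3 and STAT5 in early thymocytes and again in maturing CD8 cells, while double-positive cells respond to it poorly. SOCS proteins, themselves induced by STATs, close the loop by blocking the receptors and kinases.

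The tissue label was set against 10 measured thymocyte markers, and all 10 were above background on the 3 arrays, where 61.8% of all named genes were. So were 6 of 9 neutrophil, 4 of 7 B cell and 3 of 4 erythroid markers. The macrophage and dendritic cell list passed in 9 of 10 cases and the thymic epithelial list in 6 of 8. Passing the threshold therefore does not by itself mark thymocytes. Cd3e, a chain of the CD3 complex, read 12.11, 11.96 and 12.09 on the log2 scale in mice 92, 103 and 106. The co-receptor gene Cd8a had levels of 13.24, 13.18 and 13.22 in the same mice. The widest ranges among the thymocyte markers were those of the recombinase genes Rag2, at 10.24, 9.41 and 9.91, and Rag1, at 13.81, 13.38 and 13.58, both highest in mouse 92; Rag2 had an unadjusted p of 0.00722 and an adjusted p of 0.549 (limma). Markers of other cells also differed between the samples: all 9 neutrophil markers and all 7 measured B cell markers were lowest in mouse 92. The mean neutrophil marker level was 6.29 for mouse 92, 8.25 for mouse 103 and 7.84 for mouse 106, and the mean B cell marker level was 6.52, 7.71 and 7.42. The widest ranges were 2.78 and 2.75 log2 units for Lcn2 and Ngp among neutrophil markers, 1.57 and 1.39 for Cr2 and Bank1 among B cell markers, 1.96 and 1.17 for Alas2 and Car1 among erythroid markers, 1.31 and 0.96 for Lyz2 and C1qc among macrophage and dendritic cell markers and 0.81 and 0.53 for Krt8 and Krt5 among thymic epithelial markers. The arrays also differed in sex-linked transcripts, with Xist at 5.30 for mouse 92, 11.85 for mouse 103 and 11.67 for mouse 106. Eif2s3y, a Y-linked gene, was at 10.42, 3.59 and 3.55. By these transcripts mouse 92 read as male and mice 103 and 106 as female. A difference of mouse 92 from both other mice therefore cannot be told apart from one between the sexes. Each array gave 35557 probe set levels with a median between 6.70 and 6.72, and precision is limited throughout by the number of arrays. In tissue samples of this kind, fewer cells of a type and less RNA per cell cannot be told apart.

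Stat5a and Stat5b lie side by side on chromosome 11, with Stat3 next to Stat5a, and the proteins of the Stat5 pair are close copies of each other. The likeness also extends to a start site of each gene. Among the 12 start-site windows that RefSeq gives for the 9 genes (GRCm38.p6, each running from 250 bases before to 50 after a start), 63 pairs of windows from different genes were aligned. The best match was 65 bases long and had no gap, between a window of Stat5a and a window of Stat5b, with 58 identical bases, 89.2%. It is shown because it sets this pair apart from the other members' windows, with capitals at the 7 bases that differ. The Stat5a copy is at chr11:100860418-100860482 on the plus strand and ends just before the start site, and the Stat5b copy is at chr11:100822563-100822627 on the minus strand and runs 8 bases past it. RefSeq also gives each gene a start site further upstream. Their windows, at chr11:100859406-100859705 (Stat5a) and chr11:100850532-100850831 (Stat5b), are not those of this match.
Stat5a: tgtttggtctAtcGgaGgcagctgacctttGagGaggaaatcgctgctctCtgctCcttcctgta
Stat5b: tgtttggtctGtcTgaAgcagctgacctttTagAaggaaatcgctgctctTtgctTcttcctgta
This match scored 44, where an identical base counts 1 and a differing one -2, and the next best match between windows of different genes scored 12. Whether the array's probes for Stat5a and Stat5b also bind the other gene's RNA was not tested.

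STAT dimers bind the palindrome TTCNNNGAA, and STAT6 also binds TTCNNNNGAA, with N any base; being palindromic, each reads the same way on both strands. Neither run of letters occurred in any of the 12 windows, against 8.30% and 6.95% of all 32851 windows of that length. This says only that these letters are not in those windows. The windows differed in CpG content, also within a gene. The Stat5b windows held 50 and 7 CpG dinucleotides and the Stat5a windows 5 and 27. The Jak2 window held 44 and the Stat4 windows 2 and 4, beside a median of 7 over all windows.

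Transcripts of all 8 measured genes were detected in every mouse. A gene was called above background on an array when its level exceeded the 95th percentile of 1207 olfactory, vomeronasal and trace amine receptor genes, a threshold of 5.91, 6.10 and 6.00 on the arrays of mice 92, 103 and 106. All 8 genes passed on all 3 arrays, where 61.8% of all named genes did, and they lay 2.18 to 6.37 log2 units above the threshold. The share of all named genes, here and elsewhere, counts the 1207 receptor genes too. Nearly all of those lie below the threshold by its definition, which lowers that share. With the 99th percentile of those genes as the threshold all 8 passed as well. Probe sets differ in affinity, so the levels below are compared between mice and not between genes.

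The kinases are taken first. Jak1, which serves the common gamma chain, gp130 and interferon receptors, read, on the log2 scale, 12.28 for mouse 92, 12.02 for mouse 103 and 12.10 for mouse 106. Its mean was 12.13 ± 0.14 (SD, n = 3), and its highest and lowest arrays were 1.20-fold apart. Jak2, the kinase of the erythropoietin, growth hormone and interferon gamma receptors, had levels of 10.49, 10.16 and 10.24 in mice 92, 103 and 106. Both genes were thus highest in mouse 92 and lowest in mouse 103, and Jak2 had the widest range of the 8 genes, at 0.33 log2 units or 1.25-fold. Tyk2, which pairs with other JAKs at the type I interferon, IL-10 and IL-12 receptors, ran the other way, with levels of 8.24 for mouse 92, 8.41 for mouse 103 and 8.32 for mouse 106. Tyk2 stayed within 0.17 log2 units. None of the 3 kinase genes passed the test of its spread against that of genes of like level: the unadjusted p was 0.392 for Jak1, 0.283 for Jak2 and 0.733 for Tyk2, with adjusted p-values of 0.996, 0.996 and 0.997 (limma, variance between mice over its prior, Benjamini-Hochberg over 13314 genes).

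Among the STAT genes, the Stat5 pair differed in how far the mice spread. Stat5b, which with Stat5a carries the IL-7 and IL-2 signal, had levels of 10.68, 10.61 and 10.64 in mice 92, 103 and 106, a range of 0.06 log2 units or 1.04-fold. Stat5a had levels of 9.82, 10.15 and 10.04 in the same mice, a range of 0.32 or 1.25-fold, and was lowest in mouse 92. The SD between mice was 0.030 for Stat5b, the smallest of the 8 genes, and 0.16 for Stat5a. With 3 mice the 95% interval of an SD is wide, 0.0159 to 0.192 for Stat5b and 0.0855 to 1.03 for Stat5a (chi-square), so that the intervals overlap. In the limma test the adjusted p was 0.998 for Stat5b and 0.996 for Stat5a.

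Stat3, the main factor of the gp130 cytokines IL-6 and IL-11, had levels of 10.37 for mouse 92, 10.30 for mouse 103 and 10.45 for mouse 106, a mean of 10.37 ± 0.075 (SD, n = 3). Stat6, the factor of IL-4 and IL-13, had levels of 10.26, 10.34 and 10.11, with a mean of 10.24 ± 0.12 (SD, n = 3). Stat4, the factor of IL-12, had levels of 8.44, 8.37 and 8.18, with a mean of 8.33 ± 0.14 (SD, n = 3). Stat4 and Stat6 were lowest in mouse 106, while Stat3 was highest there. The adjusted p in the limma test was 0.997 for Stat3, 0.996 for Stat6 and 0.996 for Stat4.

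**Figure D1:**
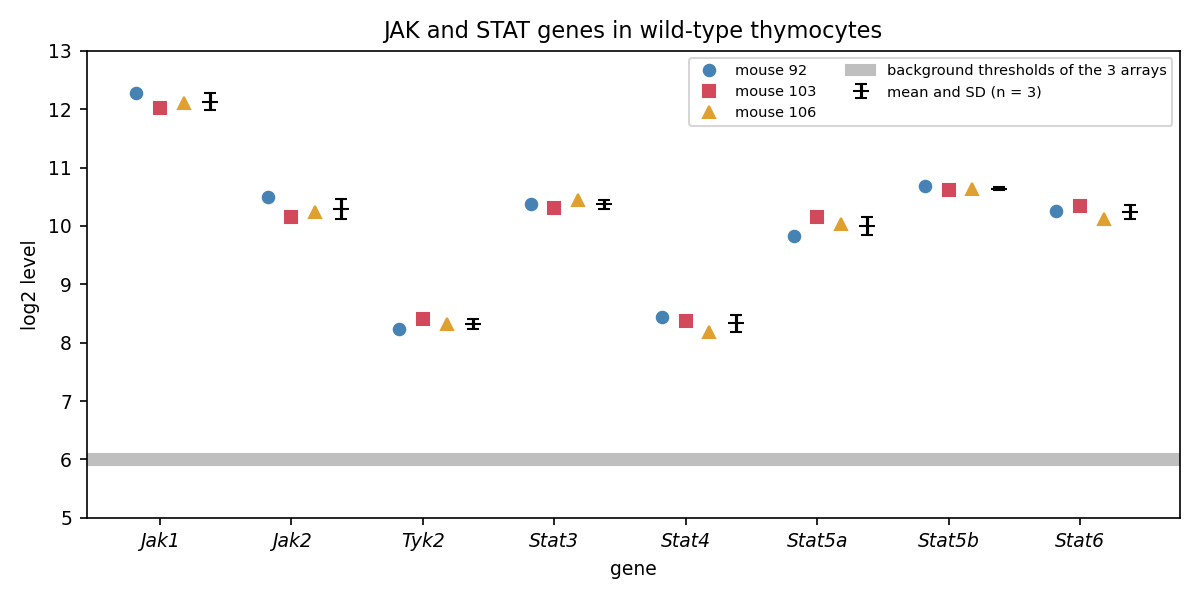
Log2 level (y axis) of the 8 measured JAK and STAT genes (x axis) in mouse 92 (circles), mouse 103 (squares) and mouse 106 (triangles), with the mean and SD beside each gene and the background thresholds of 5.91 to 6.10 as a grey band. Every point lies above the band, and the points of a gene lie within 0.06 (Stat5b) to 0.33 (Jak2) log2 units of each other; heights of different genes are not comparable.

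No member passed the test of variation between mice: 0 of 8 were called, where 0.225% of the 13314 tested genes did (30 genes, limma, adjusted p under 0.05). At an unadjusted p under 0.05, limma again called 0 of the 8, beside 4.84% of all tested genes, and the robust prior also called 0. The median SD of the members was 0.127, and that of all tested genes 0.133; 4 members lay below the latter. A single gene at these levels needed an SD of 0.27 to 0.30 for an unadjusted p of 0.05, and the smallest SD among the 30 called genes was 0.76, with a range of at least 2.73-fold. In this fit no gene with a smaller SD was called over all genes, so smaller differences between mice may have been missed with 3 arrays.

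**Figure D2:**
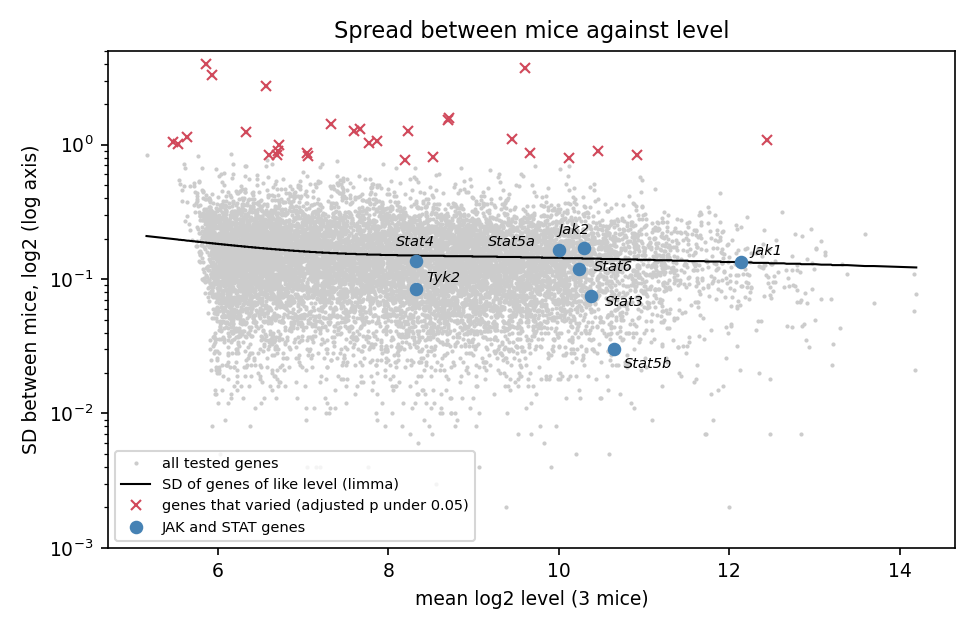
SD between the 3 mice on a log axis (y) against the mean log2 level (x) for all 13314 tested genes (grey), with the SD of genes of like level as limma estimates it (line), the 30 genes that varied (crosses) and the 8 JAK and STAT genes (filled circles). The members scatter about the line, from Stat5b at 0.030 to Jak2 at 0.17, and none approaches the crosses, the lowest of which is at 0.76.

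The order of the mice differed from gene to gene. Mouse 92 was highest for 4 of the 8 genes (Jak1, Jak2, Stat4 and Stat5b), mouse 103 for 3 (Tyk2, Stat5a and Stat6) and mouse 106 for 1 (Stat3). Over all tested genes mouse 92 was highest for 37.4%, mouse 103 for 39.1% and mouse 106 for 23.5%. Averaged over the members, the deviation from the 3-mouse mean was 0.03 for mouse 92, 0.00 for mouse 103 and -0.03 for mouse 106. The deviation of the neutrophil markers was -1.17, 0.79 and 0.38 in the same order, and that of the B cell markers -0.69, 0.49 and 0.20. The largest deviations of a member in mouse 92 were 0.19 for Jak2 and -0.18 for Stat5a. The thymocyte markers deviated by 0.10, -0.10 and 0.00.

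**Figure D3:**
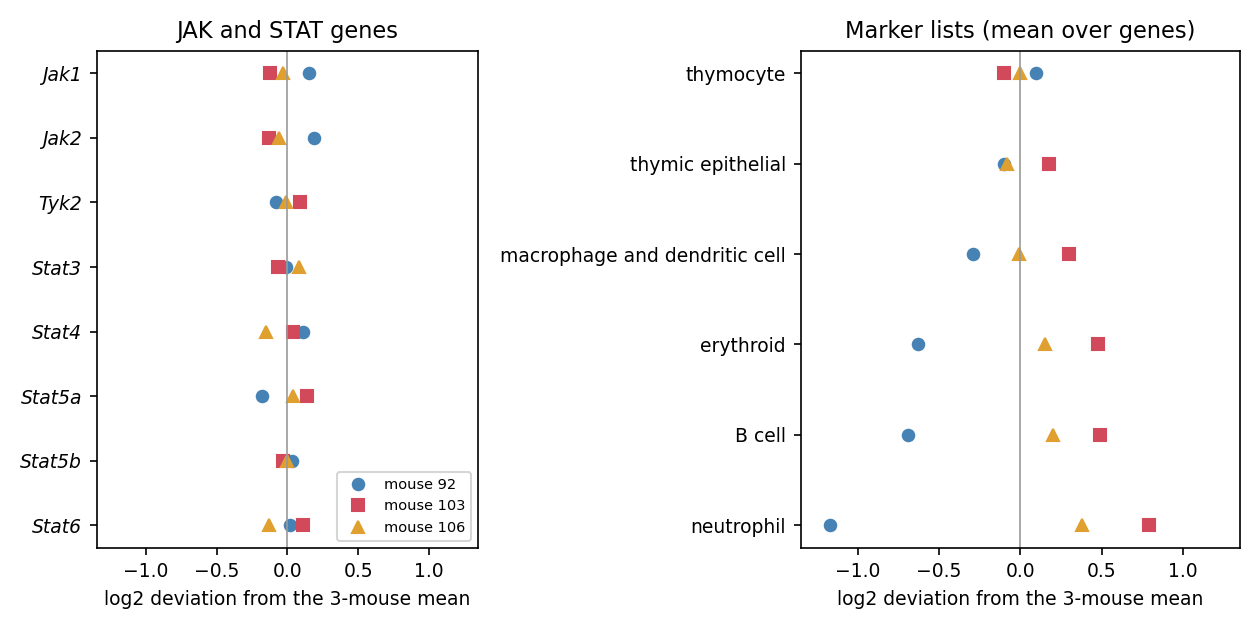
Log2 deviation of each mouse from the 3-mouse mean (x axis) for the 8 JAK and STAT genes (left, rows) and for the mean of 6 cell type marker lists (right, rows), on the same scale, with circles for mouse 92, squares for mouse 103 and triangles for mouse 106. The JAK and STAT genes stay between -0.18 and 0.19, while the neutrophil list spans -1.17 to 0.79.

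The receptors that feed these kinases were also read. Of 34 measured receptor chains in 4 families, 25 were above background on all 3 arrays, 73.5% beside 61.8% of all named genes. In the list of the common gamma chain family, which also holds the related chains Crlf2 and Il13ra1, 8 of 9 measured genes passed. Il2rg, which encodes the common gamma chain itself, had no probe set under its symbol and was not measured. Il7r, the IL-7 receptor chain that JAK1 serves, had levels of 10.57, 10.45 and 10.15 in mice 92, 103 and 106, and Il4ra, the chain upstream of STAT6, had 10.97, 10.80 and 10.84. The widest ranges of that list belonged to Il2ra and Il9r. Il2ra, the IL-2 receptor alpha chain that early double-negative thymocytes carry, was at 7.77 for mouse 92, 8.49 for mouse 103 and 8.79 for mouse 106, while Il9r was at 7.21, 7.74 and 7.31. Il2ra was lowest in mouse 92 but did not pass over all genes (unadjusted p = 0.00173, adjusted p = 0.291, limma). Without mouse 103, where each gene had 2 arrays, its adjusted p was 0.0421. Il13ra1 was above background on no array.

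In the gp130 and IL-12 receptor family 6 of 10 chains passed, 60.0% beside 61.8% of all named genes, and 5 at the 99th percentile threshold. Csf3r passed by as little as 0.04 log2 units. Il6st, which encodes gp130, had levels of 11.23, 10.88 and 11.06 in mice 92, 103 and 106, and Il12rb1 had 8.76, 8.76 and 8.85. Il12rb2, the chain to which STAT4 binds, had 7.21, 7.50 and 7.93. Il12rb2 was thus lowest in mouse 92 and highest in mouse 106, while Stat4 was highest in mouse 92 and lowest in mouse 106; neither passed the limma test (adjusted p of 0.845 and 0.996). Csf3r, the G-CSF receptor of neutrophils, was at 5.95, 6.70 and 6.54, and Il6ra at 8.30, 8.41 and 8.65. Csf3r was lowest in mouse 92, but so were 7 of the 10 measured chains of this family, Csf3r included. Whether neutrophils had a part in this was not tested. Lifr, Osmr and Lepr were above background on no array, and Il23r on 1, at 5.64, 6.36 and 5.68.

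The interferon and IL-10 receptor family passed in 6 of 8 cases, 75.0% beside 61.8% of all named genes. Ifngr1, the ligand-binding chain of the interferon gamma receptor, was at 10.71, 10.67 and 11.02, Il10rb at 8.24, 8.58 and 8.29, and Ifnar2 at 9.46, 9.33 and 9.56 in mice 92, 103 and 106. Among the 6 chains that passed, these had the widest ranges, 0.35, 0.34 and 0.23 log2 units. Il22ra1 was above background on no array. Of the single-chain and beta common receptors, most of which signal through JAK2, 5 of 7 passed, and 2 with the stricter threshold at the 99th percentile. Their widest ranges among those that passed were those of Csf2ra, the GM-CSF receptor alpha chain, at 7.24, 7.66 and 7.58, Csf2rb at 6.40, 6.33 and 6.61 and Csf2rb2 at 6.84, 6.58 and 6.69. Ghr and Il5ra were above background on no array.

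The ligands stood on the other side of the threshold. Of 25 measured cytokine genes, 5 were above background on all 3 arrays, 20.0% against 61.8% of all named genes. They were Il13, Osm, Il27, Ebi3 and Csf3, which lay 0.01 (Osm) to 1.12 (Il13) log2 units above the threshold, with Ebi3 at 6.33, 6.60 and 6.43, Csf3 at 6.25, 6.19 and 6.40 and Il13 at 6.94, 7.14 and 7.12 in mice 92, 103 and 106. Osm, which is also a STAT5 target, was at 6.18, 6.11 and 6.26, and Il27 at 6.98, 7.05 and 6.91. With the 99th percentile as the threshold 2 of the 25 remained above it. Il7, the thymic cytokine made by epithelial cells, was below the threshold on every array, at 4.28, 4.73 and 4.59. So were Il2, Il4, Il15, Il21, Il9, Tslp, Il6, Il10, Il11, Lif, Il12b, Il23a, Ifng, Ifnb1, Epo, Csf2, Il3 and Il5. Il12a passed on 1 array.

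All measured SOCS, phosphatase, PIAS and adaptor genes passed at the 95th percentile threshold, where 61.8% of all named genes did. All 8 SOCS family genes were above background on the 3 arrays, and 5 of them at the 99th percentile threshold. Socs1, which blocks JAK kinases directly, had levels of 9.50, 9.53 and 9.64 in mice 92, 103 and 106, and Cish, a STAT5-induced member, had 6.90, 6.95 and 7.10. The widest range was that of Socs4, at 9.46 for mouse 92, 8.72 for mouse 103 and 8.78 for mouse 106 (unadjusted p = 0.00875, adjusted p = 0.583, limma). Socs7 had levels of 8.41, 8.45 and 8.83, and Socs5 8.61, 8.77 and 8.50. Among phosphatases, PIAS proteins and adaptors, all 15 measured genes passed, and 14 of them at the 99th percentile threshold. Ptpn6, which encodes the phosphatase SHP-1, had levels of 11.04, 11.49 and 11.29. Ptpn2, a phosphatase of JAK1 and JAK3, had 8.60, 8.19 and 8.39, and Pias4 had 8.84, 9.21 and 9.03. No SOCS gene and no phosphatase, PIAS or adaptor gene passed the limma test over all genes.

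**Figure D4:**
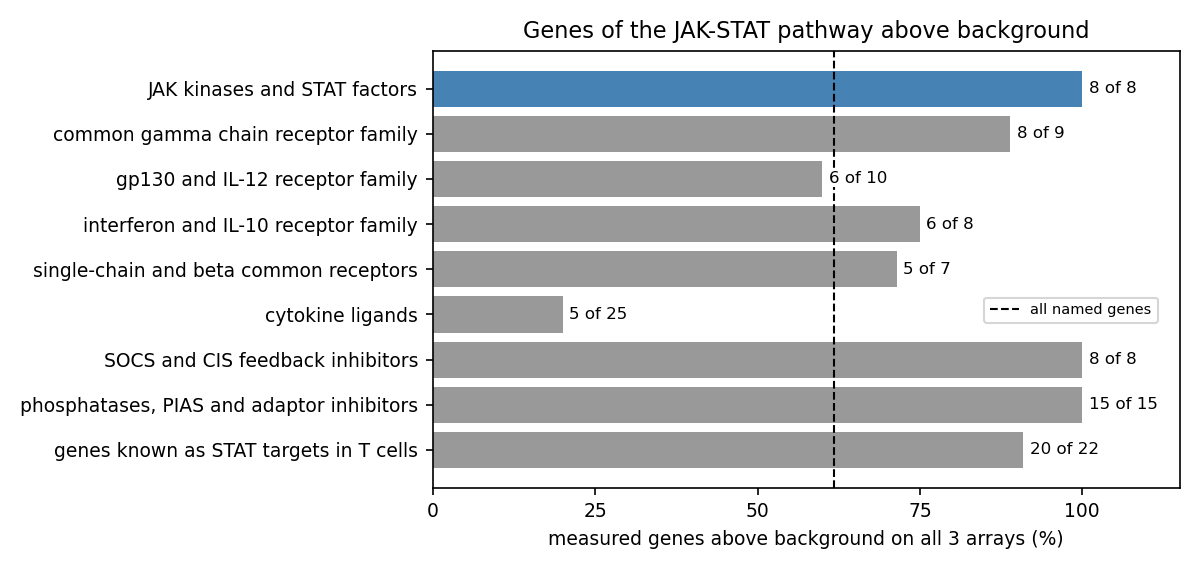
Share of measured genes above background on all 3 arrays (x axis, percent, bars from 0) for the JAK and STAT genes and for each pathway list (rows), with the counts at the bars and a dashed line at the 61.8% of all named genes. The JAK and STAT genes (8 of 8), SOCS genes (8 of 8) and phosphatase, PIAS and adaptor genes (15 of 15) reach 100%. The cytokine ligands (5 of 25) reach 20.0%.

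Genes known as STAT targets in T cells were above background in 20 of 22 measured cases, 90.9% beside 61.8% of all named genes. With the 99th percentile as the threshold 17 of them passed. Pim1, a survival kinase and STAT5 target, had levels of 10.06, 10.08 and 9.82 in mice 92, 103 and 106. Among those detected on all 3 arrays the widest ranges belonged to Tbx21, Runx3 and Ccnd3. Tbx21, the T-bet gene that STAT4 and interferon gamma signals raise, was at 6.42 for mouse 92, 7.29 for mouse 103 and 6.97 for mouse 106. Runx3, a factor of the CD8 and cytotoxic lineage, was at 7.23, 7.75 and 7.83, and the cyclin gene Ccnd3 at 11.79, 12.19 and 12.26. All 3 were lowest in mouse 92, and none passed over all genes (adjusted p of 0.653, 0.987 and 0.996, limma). Prdm1 was above background on no array, and Eomes, a factor of effector CD8 and NK cells, on 2, at 5.46, 6.12 and 6.13.

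Over the receptors, ligands, SOCS genes, phosphatases, PIAS genes, adaptors, targets and Stat2 together, 73 of 104 measured genes were above background. That was 70.2% beside 61.8% of all named genes. Of the 77 tested, 0 varied between mice over all genes (limma). At an unadjusted p under 0.05, 8 of the 77 were called, 10.4% against 4.84% of all tested genes: Il2ra, Il12rb2, Il23r, Csf3r, Socs4, Tbx21, Eomes and Runx3. The members gave 0 of 8 by the same measure. Of those 8 pathway genes all but Socs4 were lowest in mouse 92, which was lowest for 4678 of all 13314 tested genes. Il23r and Eomes were not above background in mouse 92 and entered the test only through mice where they were high. The 8 genes were also picked for their spread. The lowest mouse was not counted over all genes picked that way, so no conclusion is drawn from this order. The means of the neutrophil, B cell, erythroid and macrophage marker lists were also lowest in that mouse. Gene by gene, 7 of the 10 macrophage and dendritic cell markers were lowest there. So, by little, was the mean of the thymic epithelial list, at 6.74, 7.02 and 6.76 in mice 92, 103 and 106. Only 3 of its 8 genes were lowest in mouse 92. Mouse 92 was also the only one that read as male. The part of other cells or of sex in this was not tested. Stat2, the partner factor of type I interferon signalling, had levels of 9.75, 9.48 and 9.65 and an adjusted p of 0.996 (limma).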

How the data were processed

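Total RNA of thymocytes of 3 wild-type mice was read on Affymetrix MoGene 1.0 ST chips, per the labels. The deposited table holds log2 levels of 35557 probe sets, from 1.76 to 14.96, a scale inferred from the values. The authors made them with Affymetrix Expression Console, per the submitters' processing notes. The sources used here do not name the background correction, the normalisation, the version or the arrays normalised together. Platform annotation gave 1 symbol for 21789 probe sets, several for 1621 and none for 12147; probe sets of a gene were averaged. Genes above background on at least 1 array were tested with limma 3.58.1 in R 4.3.3 (intercept, eBayes with a trend, not robust, 10.4 prior degrees of freedom; variance over prior as an upper-tail F ratio), a procedure tested on simulated data. Nothing beyond the mouse numbers says how samples were taken, so p-values cover the spread of these samples alone, which may be technical. Start-site windows came from RefSeq (GRCm38.p6) and were aligned with Biopython 1.88. The 9 genes, the lists and the tests were chosen with earlier results of these data known. Named were all members, the 6 receptor chains serving them where measured, the 3 widest-ranging detected genes of each list, genes detected on no array, the 2 widest-ranging genes of each marker list, and a few added after their values were seen (Cd3e, Cd8a, Socs1, Cish, Pim1, Stat2, Il23r, Eomes and Il12a).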

Additional observations from a re-analysis of the deposited data

How the results depend on the processing

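The alternatives were 3 normalisations, leaving out each mouse, a stricter background, no filter on low genes, 3 other priors and the highest probe set of a gene. In all 12, 0 members varied, with adjusted p-values from 0.984 to 1.0, and all 8 stayed above background in each that bears on it. The median SD of the members was 0.0724 without mouse 92, and 0.0724 to 0.117 over the runs without a mouse. The count of varying genes, 30 with all mice, was 18 after quantile normalisation, 18 after cyclic loess, 19 with background at the 99th percentile, 0 with a robust prior whose degrees of freedom differ per gene (limma, 600 at an unadjusted p under 0.05) and 48 to 84 with a mouse left out. Pathway genes varying numbered 0 to 1 with a mouse left out, the 1 being Il2ra without mouse 103. At the 99th percentile 60 pathway genes were above background, with single-chain and beta common receptors at 2 (5 at the 95th), ligands at 2 (5) and SOCS genes at 5 (8), so signal over background limits these counts. No paired analysis was possible because there is only 1 group. The causes of these shifts were not tested.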
